A study of Homo sapiens with 6 samples.

Results

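Stable A549 lines made with a lentivirus that expresses a short hairpin RNA against CBX8 were set against each other, shCBX8-2 against shCBX8-1, to describe what separates them across all genes. A549 is an established human lung adenocarcinoma cell line. The comparison rests on 4 of the 6 libraries of the series, 2 of the line labelled shCBX8-1 and 2 of the line labelled shCBX8-2. The other 2 are from A549 cells infected with a lentivirus that expresses a control hairpin, so that all 3 groups carry a virus and a hairpin. All were grown in Dulbecco's modified Eagle's medium with fetal bovine serum, and total RNA was sequenced. The first number in the titles is read here as the name of a line. The labels do not state the hairpin sequences, whether a line is a pool or a clone, or whether the 2 libraries of a line came from separate cultures, so p-values measure only the spread between these libraries, which may be technical.

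CBX8 is a chromobox protein of Polycomb repressive complex 1 (PRC1), which binds the methylated histone mark laid down by Polycomb repressive complex 2 (PRC2) and helps to keep developmental and differentiation genes silent. A short hairpin RNA is processed in the cell to a small RNA that lowers its target's messenger RNA. More than 1 hairpin is commonly used for a gene because a small RNA can also lower transcripts other than its target.

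Values are CPM, the estimated reads of a gene scaled to a common library total in the way of edgeR, and log2 fold changes of shCBX8-2 minus shCBX8-1 with their standard error (SE). A gene was called when its p from edgeR's quasi-likelihood test, fitted to all 6 libraries and adjusted by Benjamini and Hochberg over the 17106 genes tested, was below 0.05. Between the lines 1683 genes (9.84% of those tested) were called, of which 693 were higher in shCBX8-2 (4.05%) and 990 were lower (5.79%). At least a 2-fold change was found for 131 of the higher genes (0.766% of those tested) and for 443 of the lower genes (2.59%), together 3.36%. In all 1683 the CPM of the lines did not overlap, which was also so for 26.2% of all genes tested in the upward and 28% in the downward direction. Among called genes changed at least 8-fold, 13 were higher and 67 lower in shCBX8-2. The median over all genes tested was -0.01.

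**Figure D1:**
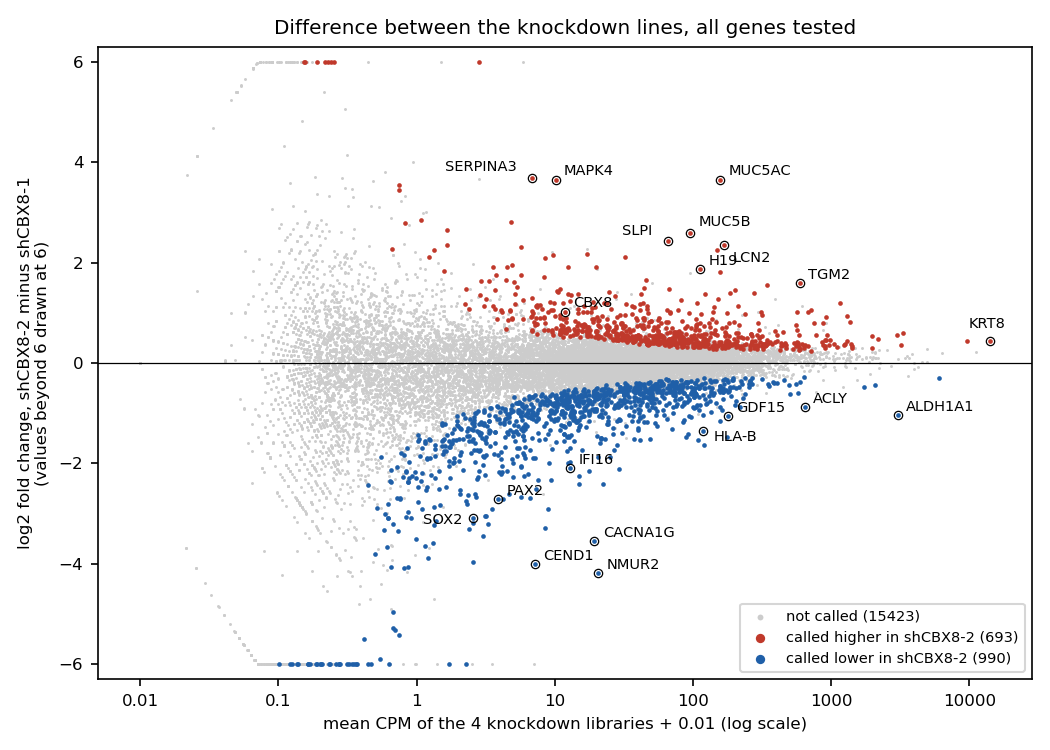
Each point is 1 of the 17106 genes tested, with the mean CPM of the 4 knockdown libraries plus 0.01 on the x axis (log scale) and the log2 fold change of shCBX8-2 minus shCBX8-1 on the y axis. Red points are the 693 genes called higher in shCBX8-2, blue points the 990 called lower and grey points were not called, and circles mark genes named in the text, such as MUC5AC at 3.66 and NMUR2 at -4.19.

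These counts rest unevenly on the libraries. The 2 shCBX8-2 libraries differed from each other by a median of 0.24 per gene on the log2 scale, against 0.13 within shCBX8-1 and 0.13 within the control group. In shCBX8-2 that difference was related to the GC content of the gene (Spearman's rho = -0.49 over 16552 genes of the same 2 libraries, against -0.13 in shCBX8-1 and 0.10 in the control group). A fit of only the 4 knockdown libraries called 640 genes, 224 higher and 416 lower, and leaving out control replicate 1 or 2 gave 616 or 619. Without shCBX8-1 replicate 1 the fit called 126, and without replicate 2 it called 144. Leaving out shCBX8-2 replicate 1 gave 2864 and leaving out replicate 2 gave 5115. In each of these 4 fits the remaining library of the line is assumed to vary like the other groups. Total estimated counts were 64197784 to 67169537 per library, so depth differed little between them. Genes with any count were fewer in shCBX8-2 (17978 and 18143) than in shCBX8-1 (18548 and 18412) or control (18768 and 18781). The part of that in the number of lower genes was not tested.

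**Figure D2:**
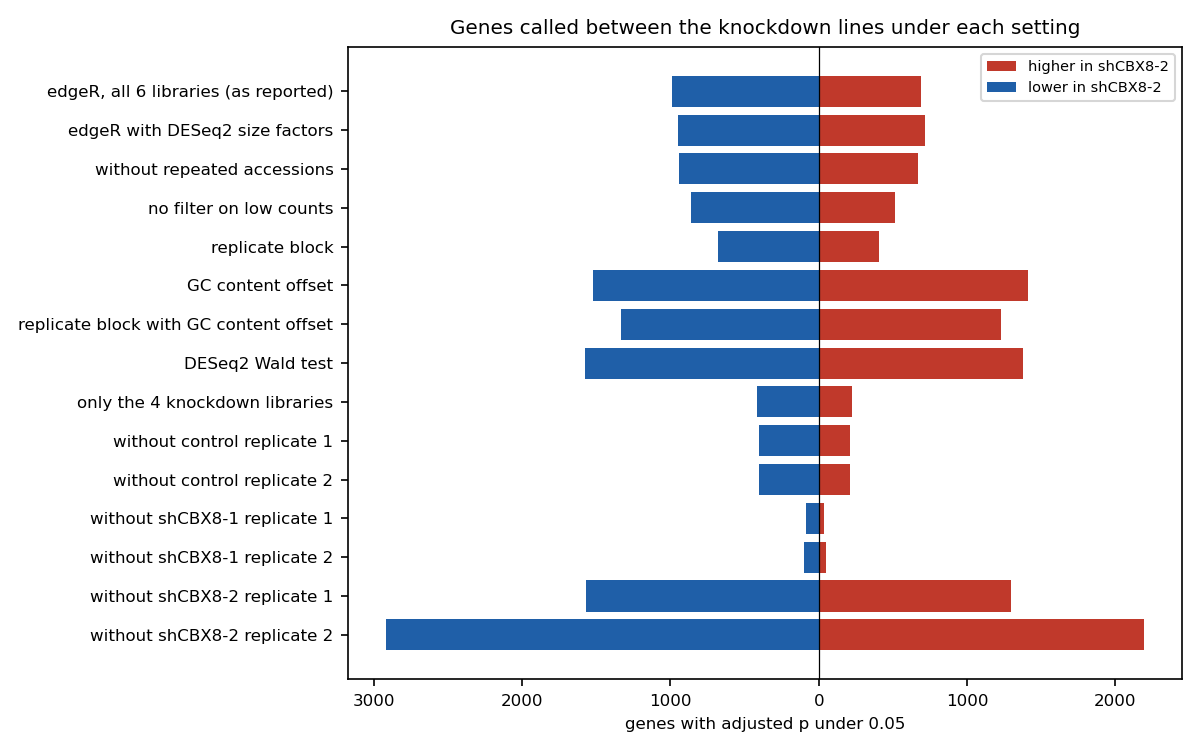
Bars give the number of genes with an adjusted p under 0.05 between the lines, higher in shCBX8-2 to the right and lower to the left, for the fit as reported (693 and 990) and for 14 other settings. The bars are shortest without either shCBX8-1 library (126 and 144 genes in all) and longest without shCBX8-2 replicate 2 (5115).

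The target itself differed between the lines. CBX8 (GRCh38.p14, chr17:79792132-79797077) stood at 24.6 and 26.3 CPM in the control libraries, at 7.79 and 7.70 in shCBX8-1 and at 17.7 and 13.8 in shCBX8-2. Both lines lay below control, and both shCBX8-1 libraries lay below both of shCBX8-2. The difference between the lines was 1.02 ± 0.15 (SE, n = 2 libraries a line, edgeR adjusted p = 0.0114), and it was no longer called without shCBX8-1 replicate 1 (edgeR adjusted p = 0.119) or replicate 2 (edgeR adjusted p = 0.115). Against control, CBX8 was called in shCBX8-1 at -1.72 (edgeR adjusted p = 0.00704) and in shCBX8-2 at -0.69 (edgeR adjusted p = 0.0297). The line with the higher remaining CBX8 had the larger number of genes called against control: 2171 genes (12.7%) in shCBX8-2 and 423 (2.47%) in shCBX8-1, in comparisons that share the control libraries.

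The study's other title genes were not called between the lines. CDKN2C, which encodes a cyclin-dependent kinase inhibitor, stood at 21.4 and 20.5 CPM in control, 37.4 and 38.6 in shCBX8-1, against 45.8 and 42.6 in shCBX8-2, a difference between the lines of 0.22 ± 0.10 (SE, n = 2, edgeR adjusted p = 0.218). SCEL, which encodes sciellin, a precursor of the cornified envelope, stood at 6.95 and 7.74, at 15.5 and 19.9, and at 23.2 and 26.5 CPM in the same order, a difference of 0.49 ± 0.16 (SE, n = 2, edgeR adjusted p = 0.11). Counts of list members here and below are to be read beside the 4.05% called higher and 5.79% called lower over all genes tested. Of 28 tested PRC1 genes 2 were higher in shCBX8-2 and none lower, CBX8 and its paralogue CBX2 (58.1 and 58.9 against 92.0 and 81.8 CPM). The shares higher, 7.14% of PRC1 and 7.69% of PRC2 genes, lay near that over all genes. Of 13 PRC2 genes 1 was higher, RBBP7, a histone-binding subunit shared with other complexes, and none of these PRC1 and PRC2 genes was called without either shCBX8-1 library. Of 21 genes of small RNA processing and double-stranded RNA sensing none was called in either direction.

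The promoters of 5 genes are shown as examples, chosen after their values were seen, of how far genes that moved between the lines range in the CG dinucleotide, in which methylation of vertebrate DNA mostly occurs and which is dense in the promoters that Polycomb complexes bind. Each is the 250 bases before the annotated start on the gene's strand, 5′ to 3′, from RefSeq on GRCh38.p14, with every CG in capitals. LCN2 (chr9:128149203-128149452, plus strand) and SERPINA3 (chr14:94612141-94612390, plus strand) were higher in shCBX8-2, and NMUR2 (chr5:152405280-152405529, minus strand), SOX2 (chr3:181711675-181711924, plus strand) and PAX2 (chr10:100735146-100735395, plus strand) were lower.
LCN2: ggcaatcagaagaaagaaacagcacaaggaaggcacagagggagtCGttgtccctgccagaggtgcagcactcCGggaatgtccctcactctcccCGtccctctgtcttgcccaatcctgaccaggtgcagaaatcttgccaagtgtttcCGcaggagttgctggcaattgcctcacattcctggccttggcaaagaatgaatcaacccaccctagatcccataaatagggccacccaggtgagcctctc
SERPINA3: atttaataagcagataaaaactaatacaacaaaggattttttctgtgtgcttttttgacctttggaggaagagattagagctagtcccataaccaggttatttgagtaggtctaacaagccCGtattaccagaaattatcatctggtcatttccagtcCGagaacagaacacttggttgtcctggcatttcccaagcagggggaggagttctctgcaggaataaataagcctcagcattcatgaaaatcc
NMUR2: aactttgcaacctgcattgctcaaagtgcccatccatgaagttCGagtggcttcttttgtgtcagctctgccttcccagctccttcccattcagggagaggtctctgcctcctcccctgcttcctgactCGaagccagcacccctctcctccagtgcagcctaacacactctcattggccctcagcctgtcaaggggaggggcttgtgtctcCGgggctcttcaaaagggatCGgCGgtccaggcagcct
SOX2: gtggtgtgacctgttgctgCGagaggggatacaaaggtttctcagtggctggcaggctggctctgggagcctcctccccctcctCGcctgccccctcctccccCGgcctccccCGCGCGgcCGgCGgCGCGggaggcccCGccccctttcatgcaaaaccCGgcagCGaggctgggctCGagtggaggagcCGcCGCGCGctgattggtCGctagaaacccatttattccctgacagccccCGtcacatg
PAX2: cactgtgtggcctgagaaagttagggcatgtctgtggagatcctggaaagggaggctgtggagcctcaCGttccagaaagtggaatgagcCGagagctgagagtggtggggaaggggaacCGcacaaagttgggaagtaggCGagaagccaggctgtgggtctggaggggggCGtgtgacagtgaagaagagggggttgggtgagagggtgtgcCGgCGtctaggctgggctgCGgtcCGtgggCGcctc
The capitals count 4 CG in LCN2, 2 in SERPINA3, 5 in NMUR2, 20 in SOX2 and 10 in PAX2, so that NMUR2, which was lower, has about as few as LCN2, which was higher. The same was counted over the 13059 tested genes with a promoter in the RefSeq table, on 300 bases (250 before and 50 after the start), as the number of CG over that expected from the C and G content. A ratio of at least 0.6 was found for 77.0% of the tested genes, for 75.9% of the 526 genes called higher and for 70.2% of the 773 called lower. With the call limited to a 2-fold change it was found for 51.1% of the 88 genes called at least 2-fold higher in shCBX8-2 and for 64.8% of the 338 called at least 2-fold lower. The letters TATAAA on either strand were found in 6.44% of the promoters of tested genes, in 7.03% and 6.73% of those of all called higher and lower genes, in 15.9% of those of the 88 higher genes and in 7.10% of those of the 338 lower genes. These shares describe the windows only, and no promoter activity or methylation was measured.

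Secretory epithelial genes were among those with the largest rise in shCBX8-2. MUC5AC (chr11:1157953-1201138), which encodes a gel-forming mucin of goblet cells, stood at 53.7 and 58.7 CPM in control, 23.8 and 22.6 in shCBX8-1, against 296 and 289 in shCBX8-2. Its difference between the lines was 3.66 ± 0.09 (SE, n = 2, edgeR adjusted p = 2.86e-05), 12.6-fold, with control between the lines. Its accessions are repeated in the table, so it was not tested where such entries were left out. MUC5B (chr11:1223066-1262172), the neighbouring gel-forming mucin, stood at 21.7 and 34.0 in control, 25.3 and 28.7 in shCBX8-1, against 174 and 154 in shCBX8-2 (2.60 ± 0.21 SE, n = 2, edgeR adjusted p = 0.00159). For MUC5B shCBX8-1 overlapped control, while both shCBX8-2 libraries lay above all the others. Of 11 tested mucins 3 were higher, the last being MUC3A, and none was lower, with a median of 0.44. The mucin count was 1 without shCBX8-1 replicate 1 and 2 without replicate 2.

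The goblet and airway secretory list had 5 of 19 tested members higher and none lower, with a median of 0.29. SLPI, a secreted protease inhibitor, stood at 30.4 and 31.1 CPM in control, 20.2 and 21.2 in shCBX8-1, against 115 and 109 in shCBX8-2 (2.43 ± 0.09 SE, n = 2, edgeR adjusted p = 0.000232). LCN2, the iron-siderophore binding lipocalin of inflamed epithelia whose promoter is given above, stood at 89.3 and 104, at 51.2 and 59.8, and at 299 and 265 (2.35 ± 0.12 SE, n = 2, edgeR adjusted p = 0.000635). Both were lowest in shCBX8-1, intermediate in control and highest in shCBX8-2, with no overlap. S100P, a calcium-binding protein, rose by 2.31 ± 0.21 (SE, n = 2), and 2 others named after their values were seen, SPDEF, a transcription factor of goblet cells, and FCGBP, a mucus protein, rose by 1.48 ± 0.16 and 1.20 ± 0.17 (SE, n = 2). In this list 3 were called without either shCBX8-1 library. PI3, which encodes elafin, another secreted protease inhibitor, went from 1.33 and 1.09 CPM in shCBX8-1 to 10.0 and 6.93 in shCBX8-2, with 4.12 and 4.17 in control.

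Acute phase and complement genes rose in part. Of 24 tested, 8 were higher and 2 lower, with a median of 0.30. SERPINA3, which encodes alpha-1-antichymotrypsin, stood at 9.53 and 12.4 CPM in control, 1.06 and 0.91 in shCBX8-1, against 13.8 and 11.7 in shCBX8-2 (3.69 ± 0.21 SE, n = 2, edgeR adjusted p = 0.000887). Here the libraries that stood apart were those of shCBX8-1, and control overlapped shCBX8-2. C3, the central complement component, stood at 94.9 and 115 in control, 51.2 and 53.7 in shCBX8-1, against 262 and 235 in shCBX8-2 (2.24 ± 0.12 SE, n = 2, edgeR adjusted p = 0.000635). CP, which encodes the copper-carrying ferroxidase ceruloplasmin, went from 6.18 and 6.25 to 28.8 and 27.0, with 11.6 and 16.3 in control. For C3 and CP the control libraries lay between the lines. Without either shCBX8-1 library 2 members were higher and none lower.

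**Figure D3:**
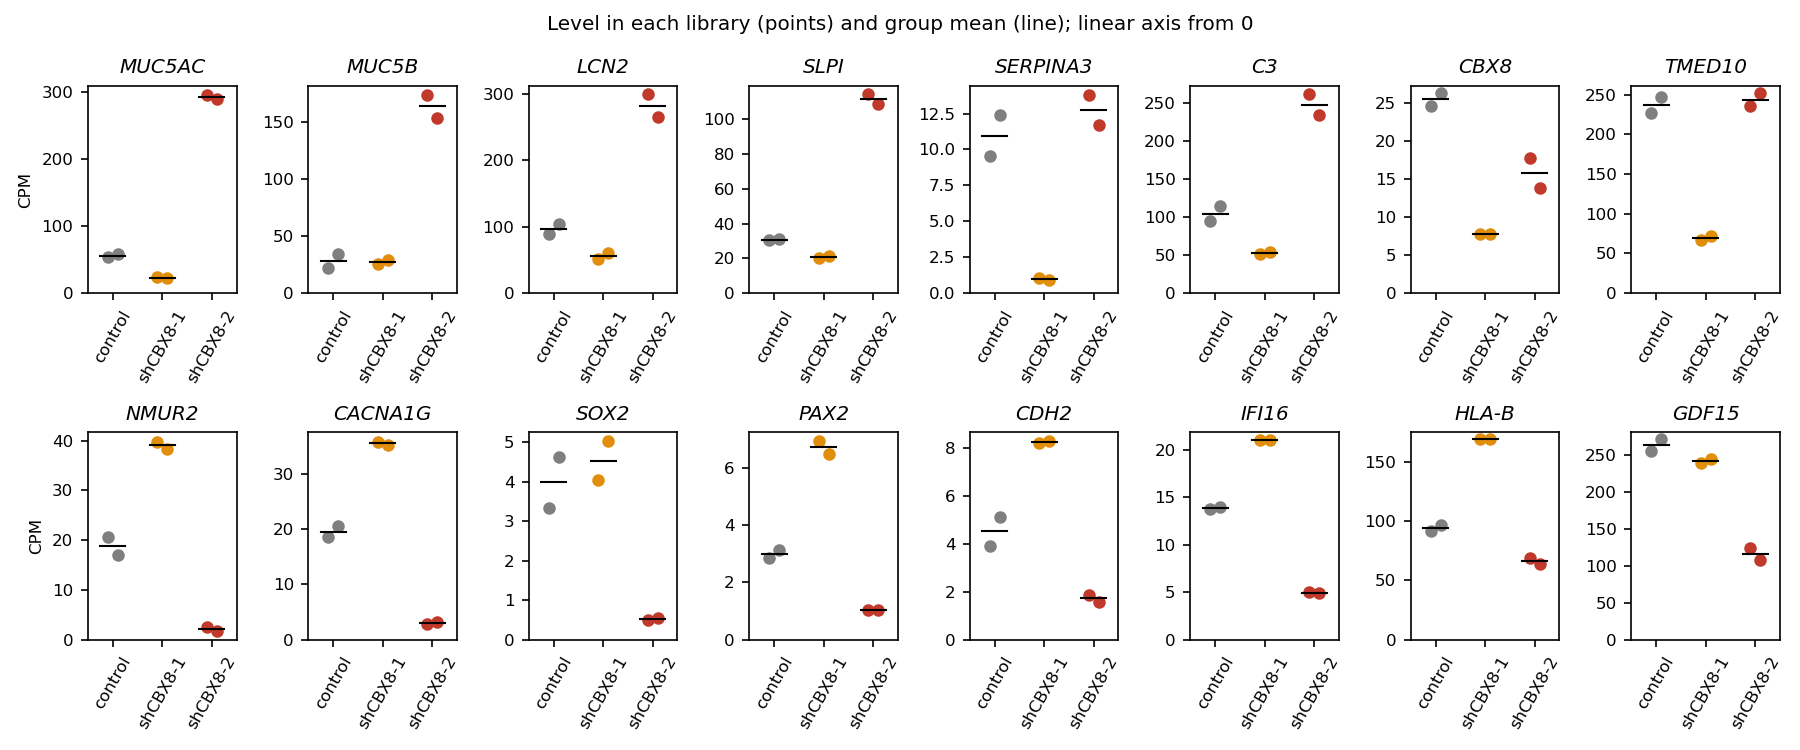
CPM of 16 genes in each of the 6 libraries (points, grey control, orange shCBX8-1, red shCBX8-2) with the mean of each group as a black line, on linear axes from 0. MUC5AC, LCN2, SLPI and C3 run from lowest in shCBX8-1 to highest in shCBX8-2 with control between them, NMUR2, CACNA1G, PAX2 and HLA-B run the other way, and SERPINA3 and TMED10 are low in shCBX8-1 alone.

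Further genes with large rises belonged to several functions. MAPK4, an atypical MAP kinase, stood at 10.7 in both control libraries, at 1.21 and 1.76 CPM in shCBX8-1 and at 20.9 and 16.6 in shCBX8-2 (3.66 ± 0.23 SE, n = 2, edgeR adjusted p = 0.000887). KLK6, a kallikrein protease, CA9, a hypoxia-induced carbonic anhydrase, and ST6GALNAC2, a sialyltransferase of mucin-type glycans, were low in every library, at most 3.48 CPM, and their calls ended without shCBX8-1 replicate 1 (edgeR adjusted p = 0.274, 0.143 and 0.222). SGK3, a serine kinase gene, is uncertain: it was listed at 0 in both shCBX8-1 libraries and at 4.21 and 7.04 CPM in shCBX8-2. Summed with its read-through entry, which overlaps it, the level was 7.53 and 6.46 in shCBX8-1 and 4.21 and 7.04 in shCBX8-2, and the groups overlapped. H19, an imprinted long non-coding RNA, stood at 11.3 and 10.1 CPM in control, 45.8 and 50.7 in shCBX8-1, against 177 in both shCBX8-2 libraries, a difference between the lines of 1.88 ± 0.09 (SE, n = 2, edgeR adjusted p = 0.000635), with both lines above control. Like MUC5AC, H19 was not tested where repeated entries were left out. Of 19 imprinted genes 2 were higher and 3 lower, and IGF2, the growth factor gene next to H19, named after its values were seen, was at 1.30 and 1.58 CPM in shCBX8-1 and at 0.126 and 0.429 in shCBX8-2.

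Among called genes changed at least 1.5-fold, those with the largest rise in CPM were ALDH3A1, IGFBP3, RNA28SN5, TGFBI, TGM2 and CTSD. TGM2, tissue transglutaminase, which cross-links proteins, stood at 317 and 377 CPM in control, 297 and 294 in shCBX8-1, against 948 and 833 in shCBX8-2 (1.59 ± 0.10 SE, n = 2, edgeR adjusted p = 0.000887). IGFBP3, a carrier of insulin-like growth factors, stood at 1125 and 1267, at 692 and 714, and at 1744 and 1483 (1.20 ± 0.10 SE, n = 2, edgeR adjusted p = 0.00155). In TGM2 shCBX8-2 stood apart from the other 4 libraries, while in IGFBP3 all 3 groups were apart. ALDH3A1, an aldehyde dehydrogenase, was below control in both lines, at 2644 and 2671 CPM in shCBX8-1 and 4212 and 3802 in shCBX8-2 against 4793 and 4838. RNA28SN5 is a 28S ribosomal RNA gene with near-identical copies and is uncertain. The 20 ribosomal RNA entries tested summed to 4859 and 4606 CPM in shCBX8-1 and to 6923 and 10034 in shCBX8-2. In control they summed to 9189 and 5060, so the libraries of a group also lay far apart. The part of ribosomal RNA in the other results was not tested.

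Epithelial structural genes rose more often than they fell. Of 16 tested keratins 4 were higher and 1 lower. KRT15, a keratin of basal epithelial cells, went from 24.2 and 22.3 CPM in shCBX8-1 to 70.5 and 60.6 in shCBX8-2 (1.496 ± 0.13 SE, n = 2, edgeR adjusted p = 0.00203), and KRT8, a keratin of simple epithelia, from 11730 and 12023 to 17125 and 15221. KRT19 went the other way: it was at 0.407 and 0.359 in control, 4.11 and 3.97 in shCBX8-1, against 0.504 and 0.652 in shCBX8-2 (-2.80 ± 0.30 SE, n = 2, edgeR adjusted p = 0.00436), high in shCBX8-1 alone. The keratins had 1 higher and none lower without shCBX8-1 replicate 1, and none was called without replicate 2. Of 12 cornified envelope and squamous genes 2 were higher, TGM3 and KLK5, both under 2 CPM in every library. KLK5 had no count in shCBX8-1, so that it was at least 19.1-fold higher in shCBX8-2 against a floor of 3 counts over that group. Neither was called without shCBX8-1 replicate 1.

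Of 32 integrin and laminin genes 7 were higher and 1 lower, with a median of 0.06, and the highest belonged to the hemidesmosome, the junction that fixes epithelial cells to the basement membrane. COL17A1, its transmembrane collagen, went from 8.34 and 8.44 CPM in shCBX8-1 to 34.1 and 28.99 in shCBX8-2, with 9.23 and 11.6 in control (1.91 ± 0.16 SE, n = 2, edgeR adjusted p = 0.00168). LAMB3, a chain of its laminin ligand, went from 217 and 210 to 443 and 389, with 199 and 206 in control. In both genes shCBX8-1 lay near control. ITGB4, its integrin beta chain, stood at 362 and 366 in control, 657 and 625 in shCBX8-1, against 1210 and 1025 in shCBX8-2, above control in both lines. Without shCBX8-1 replicate 1 the count was 1 and without replicate 2 it was 2.

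Cadherins split. CDH1, the epithelial cadherin, was at 19.3 and 21.8 CPM in control, 11.3 and 10.4 in shCBX8-1, against 18.5 and 17.6 in shCBX8-2, a difference of 0.74 ± 0.13 (SE, n = 2, edgeR adjusted p = 0.0182). In the fit of only the 4 knockdown libraries CDH1 was not called, and its list had 0 higher and 2 lower. CDH2, the neural cadherin, was at 3.91 and 5.11, at 8.19 and 8.29, and at 1.88 and 1.56, a difference of -2.26 ± 0.22 (SE, n = 2, edgeR adjusted p = 0.00263). The repressor of epithelial genes ZEB2 was also lower, from 1.93 and 2.06 to 0.299 and 0.413. CDH2 and ZEB2 were highest in shCBX8-1 and lowest in shCBX8-2, and CDH1 was lowest in shCBX8-1, with shCBX8-2 just below control. Over the whole list of 21 cadherins and regulators of epithelial-mesenchymal transition 3 were higher and 3 lower, with a median of -0.02, and without either shCBX8-1 library 1 was called, lower. Of 23 tight junction genes 3 were higher, CLDN2 and TJP3 among them, and 3 lower, CLDN1 among them, and none was called without either shCBX8-1 library.

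A minority of the S phase and mitosis genes were called, all of them higher in shCBX8-2. Of 60 genes of S phase and DNA replication 15 were higher and none lower, with a median of 0.29, and of 70 genes of G2 and mitosis 23 were higher and none lower, with a median of 0.30. RRM2, a subunit of ribonucleotide reductase, which makes the building blocks of DNA, stood out at 120 and 124 CPM in control, 108 and 107 in shCBX8-1, against 282 and 307 in shCBX8-2 (1.45 ± 0.08 SE, n = 2, edgeR adjusted p = 0.000635). The called S phase genes ran from 0.32 to that value and the called mitosis genes from 0.34 to 0.64. CDC45, a replicative helicase factor, was at 0.62 ± 0.09 and INCENP, a chromosomal passenger protein, at 0.64 ± 0.08 (SE, n = 2). The medians were 0.28 to 0.34 for S phase and 0.27 to 0.33 for mitosis in the 4 ways of setting a library of one line against a library of the other. The number called depended on the fit. It was 4 and 7 with only the 4 knockdown libraries, and lower still without either shCBX8-1 library. It was 27 and 46 after a correction for GC content, which called more genes in all (2931). The lines did not overlap upward in 46 and 48 members and downward in 1 of each, against 26.2% and 28% of all genes. Of 50 nuclear genes of the respiratory chain 6 were higher (median 0.23), and none was called with any control or shCBX8-1 library left out. Of 77 cytosolic ribosomal protein genes none was called (median 0.15).

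Of 27 replication-dependent histone genes, whose messages are made in S phase, 6 fell, none rose and 21 were not called, with a median of -0.54. H2BC12 went from 123 and 129 CPM in shCBX8-1 to 62.9 and 58.0 in shCBX8-2, with 99.5 and 91.2 in control (-1.06 ± 0.09 SE, n = 2, edgeR adjusted p = 0.00167). H2AC18 and H2AC6, with near-identical relatives in the histone clusters and so uncertain, fell by 1.01 ± 0.12 and 1.04 ± 0.15 (SE, n = 2). Without either shCBX8-1 library 1 was called.

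Of 37 genes known as p53 targets 15 were lower in shCBX8-2, 1 was higher and 21 were not called, with a median of -0.40. GDF15, a stress-induced secreted factor, stood at 255 and 272 CPM in control, 239 and 245 in shCBX8-1, against 124 and 108 in shCBX8-2 (-1.06 ± 0.09 SE, n = 2, edgeR adjusted p = 0.00168). CDKN1A, the cell cycle inhibitor p21, stood at 603 and 591, at 695 and 705, and at 484 and 438 (-0.60 ± 0.07 SE, n = 2, edgeR adjusted p = 0.00525). In both, shCBX8-2 lay below the other 4 libraries. CYFIP2, which regulates actin and is induced by p53, and FDXR, a mitochondrial reductase, fell by 1.18 ± 0.10 and 0.80 ± 0.08 (SE, n = 2). MDM2, the ligase that degrades p53, named after its values were seen, went from 216 and 215 to 66.5 and 127, with the 2 shCBX8-2 libraries far apart. The list's median was -0.49 to -0.41 in the 4 pairings of libraries across the lines, and without shCBX8-1 replicate 1 or 2 the number lower was 4 or 3.

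**Figure D4:**
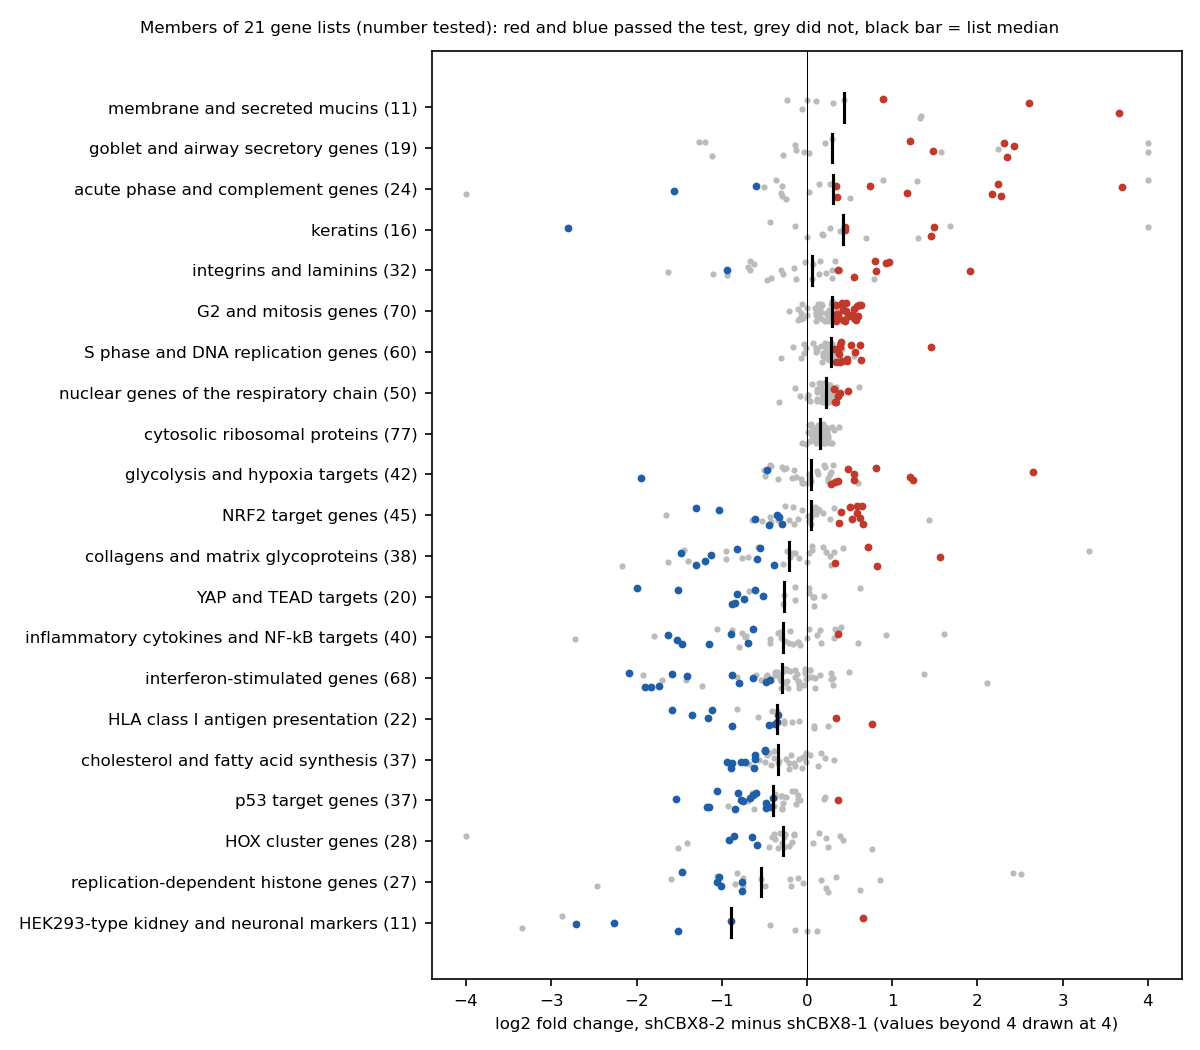
Each row is a gene list with the number of tested members in brackets, each point a member's log2 fold change of shCBX8-2 minus shCBX8-1 (x axis, values beyond 4 drawn at 4), red where called higher, blue where called lower and grey where not called, with the median as a black bar. The medians run from 0.44 for mucins and 0.30 for G2 and mitosis genes to -0.40 for p53 targets and -0.90 for the HEK293-type markers.

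Some innate immune and antigen presentation genes were lower too. Of 68 interferon-stimulated genes 11 were lower, none was higher and 57 were not called, with a median of -0.29, and 4 were called without either shCBX8-1 library. IFI16, a sensor of nuclear DNA, stood at 13.7 and 13.96 CPM in control, 21.02 and 21.03 in shCBX8-1, against 4.98 and 4.90 in shCBX8-2 (-2.09 ± 0.12 SE, n = 2, edgeR adjusted p = 0.000887). PSMB9, a subunit of the immunoproteasome, stood at 21.05 and 20.9, at 30.9 and 33.2, and at 10.6 and 10.7 (-1.58 ± 0.11 SE, n = 2, edgeR adjusted p = 0.00112). In both, the libraries ran from shCBX8-1 down through control to shCBX8-2 with no overlap. UBE2L6, a conjugating enzyme for the ubiquitin-like protein ISG15, fell by 1.74 ± 0.13 (SE, n = 2).

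Of 22 genes of HLA class I presentation 9 were lower and 2 higher, with a median of -0.35. That direction rests on genes whose accessions are repeated in the table: without those, 7 of the list were tested, of which none was lower and 2 were higher, with a median of 0.09. HLA-B, a peptide-presenting heavy chain, stood at 91.6 and 96.8 CPM in control, 169 in both shCBX8-1 libraries, against 69.3 and 63.4 in shCBX8-2 (-1.35 ± 0.08 SE, n = 2, edgeR adjusted p = 0.000887). It shares sequence with related genes, and its accessions are repeated in the table, as are those of PSMB9 and TAP1, so the levels of all 3 are uncertain. TAP1, a subunit of the peptide transporter, went from 94.3 and 91.7 to 51.6 and 49.5, with 80.3 and 80.5 in control. Of 40 cytokine and NF-kB target genes 7 were lower and 1 higher, with a median of -0.28. CCL2, a chemokine that draws monocytes, went from 181 and 180 to 56.6 and 60.5, with 161 and 126 in control. CSF1, the macrophage growth factor, went from 61.9 and 60.02 to 22.1 and 20.1, with 41.5 and 40.7 in control, and NFKB2, an NF-kB subunit, fell by 1.47 ± 0.15 (SE, n = 2). Without either shCBX8-1 library 3 of this list were lower, and of the HLA list 4 or 3.

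Target genes of YAP and TEAD, regulators of transcription in the Hippo pathway, were lower in 8 of 20 and higher in none, with a median of -0.27. CCN2, a matrix-associated growth factor, went from 33.3 and 31.1 CPM to 12.7 and 9.81, with 31.7 and 28.5 in control (-1.52 ± 0.16 SE, n = 2, edgeR adjusted p = 0.0035). ANKRD1, an ankyrin repeat protein, went from 8.31 and 7.504 to 1.62 and 2.34, with 6.91 and 6.20 in control. In both, shCBX8-1 lay near control. Without shCBX8-1 replicate 1 none of the list was called and without replicate 2 1 was. Of 14 EGFR family receptors and ligands 5 were lower and 1 was higher, the receptor EGFR (153 and 143 against 203 and 201 CPM, with 149 and 144 in control). Among the lower were the ligands TGFA (12.1 and 12.2 against 5.22 and 5.33, with 5.52 and 5.07 in control) and NRG1 (189 and 171 against 92.8 and 91.5, with 136 and 111 in control). TGFA was high in shCBX8-1 alone. In the fit of only the 4 knockdown libraries 0 of this list were higher and 2 lower. None of these was called without either shCBX8-1 library.

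Matrix genes moved in both directions. Of 38 collagens and matrix glycoproteins 4 were higher and 8 lower, with a median of -0.22. FBLN1, fibulin-1, went from 174 and 173 CPM in shCBX8-1 to 566 and 459 in shCBX8-2, with 130 and 144 in control (1.56 ± 0.11 SE, n = 2, edgeR adjusted p = 0.0012), and TGFBI, a matrix protein induced by TGF-beta, from 979 and 992 to 1836 and 1651. COL5A1, a fibrillar collagen chain, went from 17.9 and 19.7 to 6.64 and 6.88 (-1.47 ± 0.13 SE, n = 2, edgeR adjusted p = 0.00194). Of 33 matrix proteases and inhibitors 2 were higher and 7 lower. MMP7 was higher (38.8 and 40.7 against 77.1 and 70.8 CPM), with both lines below control (91.3 and 90.2). The plasminogen activators PLAT (20.8 and 17.1 against 6.10 and 5.15, with 10.9 and 11.9 in control) and PLAU (298 and 278 against 196 and 178) were lower. For PLAU both lines lay above control (140 and 127). Of 20 TGF-beta targets 4 were higher and 3 lower. PMEPA1, a feedback inhibitor of TGF-beta signalling, stood at 141 and 133 in control, 48.0 and 49.1 in shCBX8-1, against 120 and 110 in shCBX8-2, low in shCBX8-1 alone. Without either shCBX8-1 library 2 collagens and glycoproteins were higher and 1 lower, and of the TGF-beta targets 2 were higher. Of the proteases and inhibitors 1 was then lower, with 0 or 1 higher.

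Lipid and sugar metabolism differed as well. Of 37 genes of cholesterol and fatty acid synthesis 10 were lower and none higher, with a median of -0.34. ACLY, which makes cytosolic acetyl-CoA, stood at 521 and 514 CPM in control, 834 and 829 in shCBX8-1, against 453 in both shCBX8-2 libraries (-0.88 ± 0.06 SE, n = 2, edgeR adjusted p = 0.000887), high in shCBX8-1. FADS2, a fatty acid desaturase, and SQLE, the squalene epoxidase of sterol synthesis, fell by 0.62 ± 0.07 and 0.73 ± 0.08 (SE, n = 2). Without shCBX8-1 replicate 1 or 2 the count was 3 or 1. Of 42 glycolysis and hypoxia genes 10 were higher and 2 lower, with a median of 0.05. PGK1, a glycolytic kinase, went from 541 and 558 to 997 and 922, with 717 and 737 in control (0.80 ± 0.07 SE, n = 2, edgeR adjusted p = 0.00159). LDHA, which makes lactate, rose by 0.55 ± 0.05 and EGLN3, an oxygen-sensing hydroxylase, by 1.21 ± 0.13 (SE, n = 2). Of this list 2 were higher without either shCBX8-1 library.

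Of 45 targets of NRF2, the regulator of the oxidative stress response that is active in A549, 9 were higher and 7 lower. ALDH1A1, a retinal dehydrogenase abundant in this line, stood at 3522 and 3525 CPM in control, 3999 and 4174 in shCBX8-1, against 1846 and 2156 in shCBX8-2 (-1.03 ± 0.08 SE, n = 2, edgeR adjusted p = 0.0013). HMOX1, heme oxygenase 1, went from 148 and 141 in control to 94.2 and 108 in shCBX8-1 and 42.6 and 39.2 in shCBX8-2, lowest in shCBX8-2 but below control in both lines. Without shCBX8-1 replicate 1 or 2 the NRF2 targets had 1 higher, with 3 or 2 lower. Of 26 transporters 2 were higher and 7 lower, and none was called without either shCBX8-1 library. SLC7A8, an amino acid transporter, had no count in shCBX8-2 and 0.491 and 0.561 CPM in shCBX8-1, at least 22.1-fold lower against a floor of 3 counts over the group.

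The largest falls included neuronal and transport genes. NMUR2 (chr5:152391546-152405279), a receptor of the neuropeptide neuromedin, stood at 20.6 and 16.9 CPM in control, 39.7 and 38.4 in shCBX8-1, against 2.54 and 1.75 in shCBX8-2 (-4.19 ± 0.21 SE, n = 2, edgeR adjusted p = 0.000635), 18.2-fold. CACNA1G, a T-type calcium channel, stood at 18.7 and 20.5, at 35.9 and 35.3, and at 2.84 and 3.23 (-3.55 ± 0.14 SE, n = 2, edgeR adjusted p = 0.000248). In both, shCBX8-1 was above and shCBX8-2 below control with no overlap. CEND1, a neuronal differentiation protein, went from 13.9 and 13.02 to 0.536 and 1.13, with 4.01 and 4.48 in control, and SLC4A8, a bicarbonate transporter, from 14.9 and 16.1 to 1.37 and 1.81, with 3.89 and 4.45 in control. INSYN2B fell by 3.96 ± 0.36 and TMEM130 by 3.45 ± 0.25 (SE, n = 2). PAK3, a p21-activated kinase of neurons, had no count in either shCBX8-2 library and 2.99 and 3.77 CPM in shCBX8-1, at least 142-fold lower against the same floor.

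The rest of the lowest genes were weakly expressed or uncertain. FABP4, a fatty acid carrier, IL34, a cytokine, LOC728392 and an entry that matched no gene symbol were at most 4.53 CPM in every library, and none was called without shCBX8-1 replicate 1 (highest edgeR adjusted p = 0.165, for IL34). The read-through entry ARPC4-TTLL3 was listed at 0 in shCBX8-2 and at 6.35 and 2.70 CPM in shCBX8-1. Summed with the 2 genes it spans, it was at 154 and 167 in shCBX8-1 and 164 and 142 in shCBX8-2, and the groups overlapped.

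Developmental regulators were among the genes that fell. SOX2, a pluripotency and airway progenitor factor with the CG-rich promoter above, stood at 3.33 and 4.63 CPM in control, 4.03 and 5.02 in shCBX8-1, against 0.504 and 0.556 in shCBX8-2 (-3.09 ± 0.28 SE, n = 2, edgeR adjusted p = 0.00231), so that shCBX8-1 overlapped control. PAX2, a kidney and neural factor, stood at 2.86 and 3.12, at 6.95 and 6.50, and at 1.02 and 1.03 (-2.71 ± 0.20 SE, n = 2, edgeR adjusted p = 0.0013), apart in all 3 groups. Of 28 lineage transcription factors of lung and gut 3 were higher, among them KLF4 (28.0 and 32.6 against 58.4 and 53.8 CPM), and 6 lower, among them ID2 and, named after its values were seen, NKX2-1, the lung and thyroid factor (2.59 and 2.08 against 0.457 and 0.175). Without either shCBX8-1 library 1 of these factors was called, lower. None of 9 alveolar type 2 genes was called. Of 28 HOX genes, classical Polycomb targets, 4 were lower, HOXB9, HOXB6 and HOXB5 among them, with a median of -0.28, and none was called with any control or shCBX8-1 library left out.

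The remaining gene lists are given together, beside 4.05% called higher and 5.79% lower over all genes tested. Cyclins and kinases of G1 and S had the highest median of these, 0.36, with 26.3% higher and 10.5% lower. Their median was 0.13 to 0.30 in the 4 pairings of libraries across the lines. Notch and Wnt genes had 20.6% higher and 8.82% lower, with a median of -0.06. Higher and lower members numbered 7 and 3 of 34 for Notch and Wnt genes, 5 and 2 of 19 for cyclins and kinases of G1 and S, 0 and 1 of 6 for CDK inhibitors, 1 and 4 of 22 for ERK feedback genes and 2 and 3 of 16 for AP-1 and immediate early genes. They numbered 2 and 4 of 44 for amino acid and unfolded protein stress, 4 and 0 of 38 for ribosome biogenesis, 1 and 2 of 16 for heat shock genes and 1 and 2 of 15 for gut-type transport genes. The cyclin gene CCNA1 rose most among those named, from 4.60 and 6.79 CPM in shCBX8-1 to 16.01 and 14.4 in shCBX8-2. Without shCBX8-1 replicate 1 or 2 at most 1 member of each of these lists was called.

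In both directions the control mean lay between the lines in most called genes, and otherwise more often beyond shCBX8-1 than beyond shCBX8-2. Of the 693 genes higher in shCBX8-2 the control mean lay between the lines in 407, below both in 221 and above both in 65. Of the 990 lower genes it lay between the lines in 654, above both in 286 and below both in 50. TMED10, a cargo receptor between the endoplasmic reticulum and the Golgi, named after its values were seen, is a gene that stood apart in shCBX8-1, with 226 and 247 CPM in control, 66.8 and 71.8 in shCBX8-1, against 235 and 252 in shCBX8-2 (1.81 ± 0.09 SE, n = 2, edgeR adjusted p = 0.000635). In 36 genes each line was called against control in opposite directions and the lines were called against each other, 18 of them higher in shCBX8-2 and 18 lower.

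Called genes were also described by GC content, expression and chromosome. Expression, the mean CPM of the same 4 knockdown libraries, is not independent of the test. When the genes were divided into 5 classes of equal size by GC content, 1.21% of the class with the lowest content were called higher and 4.14% lower, and of that with the highest 5.23% and 7.25%. The median log2 fold change was -0.16 in the lowest class and 0.01 there after a correction for GC content, which called 2931 genes in all. Divided likewise by expression, the highest class had 9.56% called higher and 5.41% lower, and the class above the lowest had 1.84% and 8.62%. By chromosome the largest shares lower were 9.01% on X and 8.59% on chromosome 5, and the largest share higher was 7.87% on chromosome 22, beside 5.79% and 4.05% over all genes.

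Markers of cells other than A549 were checked in each library. The leukocyte genes PTPRC, CD3E and TYROBP were at or near 0 in the 4 knockdown libraries, at most 0.048 CPM, and the sum of the 6 leukocyte markers, 120 to 124 CPM in shCBX8-1 and 96.4 to 100 in shCBX8-2, was nearly all CD68, a lysosomal protein. The 7 fibroblast markers summed to 8.46 to 9.54 and 5.55 to 6.24 CPM, with DCN at 0 in every library, and the 4 endothelial markers to 2.73 to 4.12 and 4.16 to 5.72, with KDR at 0. The 5 markers of HEK293-type cells, the kind used to pack lentivirus, summed to 62.2 to 64.7 in shCBX8-1, 20.3 to 22.7 in shCBX8-2 and 43.7 to 46.3 in control. That sum was mostly NEFL, a neurofilament (55.9 and 54.2 against 20.3 and 18.3 CPM), while STMN2 was at most 0.064 CPM in any library. The HEK293-type sum, which includes PAX2, ran across the groups in the same order as PAX2, CDH2 and NMUR2. LIN28B, another of its markers, overlapped between the lines (1.30 and 1.21 against 1.32 and 0.954 CPM). The wider list of 11 tested HEK293-type markers, which includes CDH2, had 4 lower and 1 higher. It summed to 716 and 683 CPM in shCBX8-1, 646 and 582 in shCBX8-2 and 493 and 478 in control. The endothelial sum was higher in shCBX8-2. What part these sums have in the other results was not tested. The A549 genes KRT8, KRT18, AKR1B10, AKR1C2, ALDH1A1 and NQO1 were at 1543 CPM or more in every library, while EPCAM, an epithelial adhesion molecule, was at 3.05 to 8.39 CPM.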

How the data were processed

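The authors deposited estimated counts per RefSeq transcript for 6 libraries, not scaled to a common total and whole numbers already, so rounding changed nothing. The build hg38 and the tools DESeq2 1.34.0, HISAT2 2.2.1 and StringTie 2.2.1 were named, per the submitters' processing notes. Which tool did what is not given in the sources used here. Of 84787 transcript rows 99.4% matched a gene symbol (RefSeq, GRCh38.p14), and rows were summed to 28436 genes. edgeR 4.0.16 in R 4.3.3 fitted all 6 libraries in 3 groups (filterByExpr with a minimum count of 10 and total of 15, TMM scaling, quasi-likelihood test, two-sided, 3 residual degrees of freedom, biological coefficient of variation 19.1%). SEs were derived from the F statistic. The fit was tested on simulated data, where the share of unchanged genes among those called was above the nominal threshold. With 2 libraries against 2, the smallest exact two-sided permutation p for a single gene is 0.333.

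Named were CBX8, CDKN2C and SCEL. To these were added, among called genes of at least 1 CPM that did not overlap, the 12 highest and 12 lowest fold changes, and the 6 largest rises and falls in CPM among those changed at least 1.5-fold. Up to 3 called members of each of 46 gene lists followed. Members and lists were chosen with earlier results of these data known, so no list is independent evidence. A floor of 3 counts over a group covers counting error only. Alternatives were other scaling, DESeq2 1.42.0, no filter, fewer libraries, a replicate block, a GC correction and transcripts as deposited.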

Additional observations from a re-analysis of the deposited data

Results flagged for a closer look

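In 19 of the named genes each line was called against control in opposite directions, and the lines were called against each other. All named genes except CBX8, CDKN2C and SCEL were chosen among genes called between the lines. That call is therefore no further evidence here. The lines share their control libraries in this reading. Some calls against control lay near the threshold, such as EGLN3 (edgeR adjusted p = 0.0445 in shCBX8-1 and 0.0484 in shCBX8-2) and MAPK4 in shCBX8-2 (edgeR adjusted p = 0.0434). The calls against control were made in the fit as reported only. Below control in shCBX8-1 and above it in shCBX8-2 were MUC5AC (3.66 between the lines), MAPK4 (3.66), PI3 (2.80), SLPI (2.43), LCN2 (2.35), C3 (2.24), CP (2.17), EGLN3 (1.21), IGFBP3 (1.20) and PGK1 (0.80). Above control in shCBX8-1 and below it in shCBX8-2 were NMUR2 (-4.19), CEND1 (-4.01), INSYN2B (-3.96), CACNA1G (-3.55), SLC4A8 (-3.28), PAX2 (-2.71), PSMB9 (-1.58), CSF1 (-1.53) and HLA-B (-1.35). Over all genes tested 36 met the same description.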

How the results depend on the processing

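The counts of genes called between the lines (1683, with 693 higher, 990 lower and 574 changed 2-fold) moved with the libraries used and with the unit tested. Leaving out 1 library at a time gave 126 to 5115 genes, 37 to 2195 higher, 89 to 2920 lower and 105 to 1237 changed 2-fold, the lowest without shCBX8-1 replicate 1 and the highest without shCBX8-2 replicate 2. The lone library is then assumed to vary like the other groups. The fit of only the 4 knockdown libraries gave 640, with 224 higher, 416 lower and 321 changed 2-fold. The GC correction gave 2931 (1410 higher, 1521 lower), DESeq2's Wald test 2954 (1380 and 1574) and a test against a fold of 1.5 gave 232. DESeq2 size factors gave 1663, no filter 1381 and leaving out repeated accessions 1612.

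Replicate numbers in the titles were checked for pairing. The correlations of the deviations of same-numbered libraries were -0.02 to 0.02, so no pairing by number was seen. The labels do not say whether the libraries were prepared in pairs. With the replicate block 1086 genes were called, 404 higher and 682 lower, and with the block and the GC correction 2565, of which 1231 were higher.

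Transcripts tested as deposited gave 1 call among 40859, for MUC5AC, higher in shCBX8-2, with 0 lower, and the most abundant transcript of SCEL (-0.23) and IL34 (0.12) then differed in the other direction. The cause was not tested. Of the 137 named genes that were called, 109 were called in the fit of the 4 knockdown libraries, 52 and 54 without shCBX8-1 replicate 1 and 2, and 137 with DESeq2 or the GC correction, and none changed direction in those settings.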
